A study of Mus musculus with 10 samples.

Results

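The Bcl2 family of apoptosis regulators was examined in RNA sequencing of unseparated CD3+ T cells from spleen, through the 10 members Bad, Bak1, Bax, Bbc3, Bcl2, Bcl2a1b, Bcl2l1, Bcl2l11, Bcl2l2 and Bid out of 20617 genes in the normalized count table. The members were chosen by name as a textbook family. Bcl2 family proteins decide whether the outer mitochondrial membrane stays intact. Prosurvival members (Bcl2, Bcl2l1, Bcl2l2, Bcl2a1b) bind and restrain the effectors Bax and Bak1, which otherwise open pores that release cytochrome c. BH3-only members (Bcl2l11, Bid, Bad, Bbc3) sense stress and neutralize the prosurvival proteins or activate the effectors. In T cells, Bcl2 and Bcl2l11 (which encodes Bim) are best known for setting the survival of naive cells and the contraction of a response after antigen is cleared.

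The libraries came from Nf1OPG mice, an Nf1 optic pathway glioma model on the C57BL/6 background that is Nf1+/- throughout the body and loses the remaining Nf1 allele in neuroglial progenitors through GFAP-Cre. The Cre is not driven in T cells, so the T cells of both groups carry 1 mutant Nf1 allele. The control group was 5 libraries of mice given PBS (replicates 1 to 5), and the treated group was 5 libraries of mice given OVA (replicates 6 to 10). OVA is chicken-egg ovalbumin, injected intraperitoneally (0.5 mL at 16 µg/mL) with aluminum hydroxide at 2 mg/mL on days -14 and -7, and then given intranasally to induce experimental asthma. The mice were treated at 4 to 6 weeks of age, and the age at which the sequenced spleens were taken is not given in the sources used here. The sources also do not say whether a library holds 1 mouse or several, and p-values then measure only the spread between these libraries, which may be technical.

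The libraries differed in depth, in sex-linked genes and in the markers of other cells. Between 6835696 and 23130017 reads were recovered from the PBS libraries and between 14711683 and 29915782 from the OVA libraries, with the fewest in PBS replicate 3. Xist, which is transcribed from the inactive X chromosome of female cells, had at most 4.30 normalized counts in the PBS libraries, 3.60 in OVA replicate 9, and between 369 and 656 in OVA replicates 6, 7, 8 and 10. The summed Y-linked genes Ddx3y, Uty and Kdm5d had 588 to 1678 normalized counts in the PBS libraries and 536 to 1458 in OVA replicates 6 to 9, but 0 in OVA replicate 10. The rows of these 4 genes were placed with a probability of at least 0.980 by the alignment described next. OVA replicates 6, 7 and 8 thus held Xist and Y-linked reads together, as RNA of female and male cells in 1 library would, so n counts libraries that may hold more than 1 mouse. Xist and Y-linked reads went partly with the groups, and sex and treatment cannot be told apart in these libraries. Because OVA replicate 10 stood apart, results are also given without it.

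Gene names in the deposited table were out of step with their values, so each member was read 3 rows above the row that carries its name. This step was checked on genes with neighbouring names. Beta-2-microglobulin (B2m), abundant in every T cell, had a mean of 86494 normalized counts 3 rows above its name and 200 in the row that carries it. At a step of 3 rows, 15 genes known in T cells had a median of 2204 normalized counts, and 6 genes not expected there (such as bone morphogenetic proteins) had a median of 2.25. An alignment of names to values, which used no treatment groups, placed 118 of 118 rows between Bad and Bid at this step with a probability of at least 0.997.

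The Bcl2a1 genes were shown by sequence because Bcl2a1b has near-identical copies between which reads can be split. Bcl2a1b encodes A1, a short-lived prosurvival protein of activated lymphocytes and myeloid cells. It lies on chromosome 9 from 89199209 to 89207827 (GRCm38, plus strand). The coding sequence of 519 bases was 98.8% identical to that of Bcl2a1d (6 bases differed) and 97.9% identical to that of Bcl2a1a (11 bases differed), with unbroken identical runs of up to 217 bases. The 60 coding bases from the start codon held the most differences (GENCODE M21), and capitals mark positions at which the copies differ.
Bcl2a1a: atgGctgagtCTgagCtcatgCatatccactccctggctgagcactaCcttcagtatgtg
Bcl2a1b: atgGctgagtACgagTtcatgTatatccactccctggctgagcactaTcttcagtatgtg
Bcl2a1d: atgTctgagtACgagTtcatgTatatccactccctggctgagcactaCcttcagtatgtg
Other differing positions lie outside this stretch, and a read that covers no differing position cannot be given to 1 copy. The Bcl2a1b values are therefore uncertain, also because 401 exonic bases (49.1% of the gene model) are shared with Gm29094 on the same strand.

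The promoters of Bcl2 and Bid were printed because these members opposed each other most closely across the libraries. They run from 250 bases before the RefSeq transcription start to 50 bases after it (GRCm38.p6, both genes on the minus strand). Capitals mark GC boxes, the motif GGGCGG on either strand, which is bound by Sp1 and related factors. Neighbouring matches could overlap, and no other motif was searched.
Bcl2 promoter, chr1:106714241-106714540: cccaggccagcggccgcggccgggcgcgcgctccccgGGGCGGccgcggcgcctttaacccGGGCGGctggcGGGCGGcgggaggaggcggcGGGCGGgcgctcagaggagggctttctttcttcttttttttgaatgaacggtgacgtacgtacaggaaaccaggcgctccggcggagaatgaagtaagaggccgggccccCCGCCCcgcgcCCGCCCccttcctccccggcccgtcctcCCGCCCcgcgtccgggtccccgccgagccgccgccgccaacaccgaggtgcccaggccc
Bid promoter, chr6:120916775-120917074: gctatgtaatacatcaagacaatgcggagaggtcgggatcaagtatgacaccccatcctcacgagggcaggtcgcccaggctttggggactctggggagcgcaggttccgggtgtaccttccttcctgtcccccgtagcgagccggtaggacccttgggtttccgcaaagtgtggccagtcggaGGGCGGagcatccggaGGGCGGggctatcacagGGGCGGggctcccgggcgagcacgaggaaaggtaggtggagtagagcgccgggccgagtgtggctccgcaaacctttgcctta
The Bcl2 promoter held 7 GC boxes in 76.0% G and C, and the Bid promoter held 3 in 63.3%. Of the 16 RefSeq start sites listed for the 10 members, 11 (68.8%) had at least 1 GC box in this window, against 35.7% of all 32851 promoters. These start sites are not independent, since some genes have several and windows of Bbc3 overlap. By gene, 8 of the 10 members had a GC box in at least 1 window, and no such share by gene was taken over all promoters. Bak1 and Bcl2l1 had none in the windows searched. These matches describe the letters only.

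The comparison of OVA with PBS asks whether T cells of mice with experimental asthma differed in the RNA of this family. None of the 10 members passed an adjusted p of 0.05 (limma on log2(normalized counts + 1) over 20249 genes, lowest adjusted p = 0.509), and edgeR and DESeq2 on the recovered reads also called 0. The background was as low, since limma called 0.00494% of all genes, edgeR 0.00988% and DESeq2 0.825%. At an unadjusted p of 0.05, 1 member (Bcl2) passed in limma, beside 9.77% of all genes, and 1 passed in DESeq2 and 0 in edgeR. The groups overlapped in each of the 10 members, and among all genes tested they did not overlap in 1.78%. By the sign of the estimate, 3 members were higher in OVA libraries (Bcl2, Bak1 and Bcl2l1) and 7 were lower, beside 11043 and 9206 of all genes tested. The median log2 fold change was -0.22 beside 0.04 over all genes tested. With every library scaled to the same total, the median of all genes was 0.15. The members' estimates moved up as well, such as Bcl2 to 0.57 and Bad to -0.13. At that scaling 2 members (Bcl2 and Bcl2l1) passed an unadjusted p of 0.05 in limma, beside 2362 of 20270 genes, and 0 passed after adjustment. In bulk libraries, fewer cells of a type and less RNA per cell cannot be told apart.

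**Figure D1:**
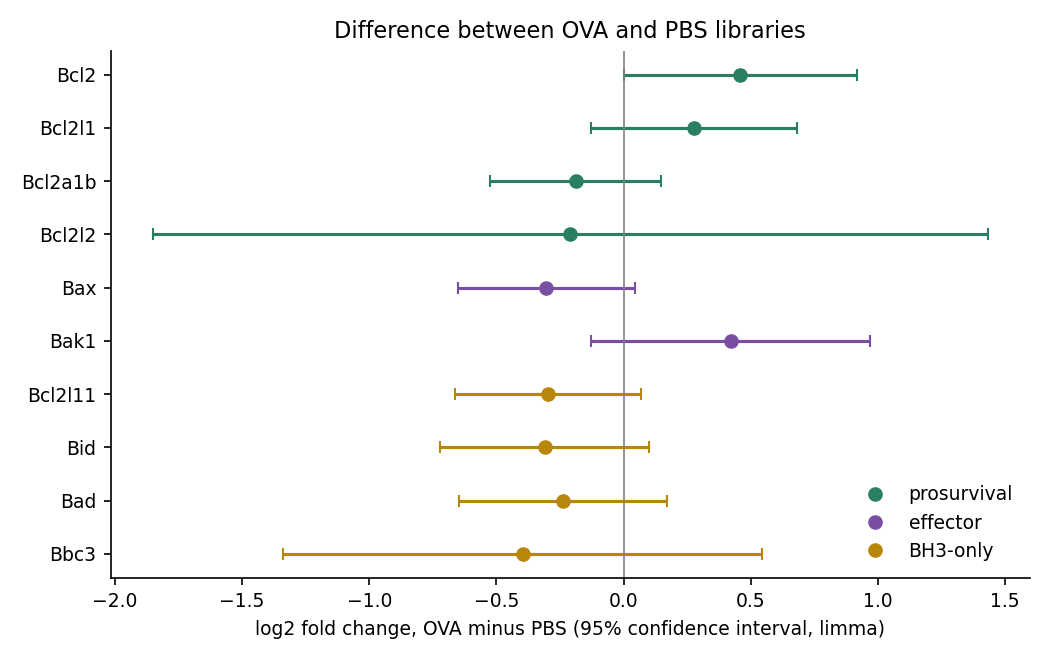
Log2 fold change of each member on the x axis (OVA minus PBS, 5 libraries each, limma), with bars for the 95% confidence interval and colours for the role of the member. The 4 BH3-only members lie between -0.40 and -0.24, each with an interval across 0, and Bcl2 has the highest estimate, 0.46.

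Among the prosurvival members, Bcl2 had the most counts and the largest difference from PBS. Bcl2, the founding member and a guard of resting T cells, had 3752, 3117, 2362, 3827 and 4933 normalized counts in PBS replicates 1 to 5 and 4363, 4980.4, 6488, 5879 and 3097 in OVA replicates 6 to 10. OVA replicates 7, 8 and 9 exceeded every PBS library, while OVA replicate 10 lay below 4 of them. The mean was 3598 ± 951 (SD, n = 5) in PBS and 4961 ± 1324 (SD, n = 5) in OVA, higher in OVA by 0.46 on the log2 scale (SE 0.21, adjusted p = 0.509 by limma). Its 95% confidence interval ran from 0.0013 to 0.92, the unadjusted p was 0.0494, and the exact two-sided permutation test over the 252 assignments gave p = 0.119, where 0.00794 is the smallest it can give. Without OVA replicate 10 it was 0.62 on the log2 scale (SE 0.20, adjusted p = 0.278 by limma), without PBS replicate 3 it was 0.32 and without OVA replicate 8 it was 0.35. The gene lies on chromosome 1 from 106538178 to 106714274, and 558 of its exonic bases (6.09%) are shared with the antisense gene D630008O14Rik, which a kit that does not mark strand cannot tell apart.

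Bcl2l1, which encodes the long-lived guard Bcl-xL of activated T cells, had 1461, 825, 634, 765 and 871 normalized counts in PBS libraries and 1008, 1274, 985, 1058 and 993 in OVA libraries. All 5 OVA libraries lay above 4 of the PBS libraries, and PBS replicate 1 was the highest of all 10. OVA exceeded PBS by 0.28 on the log2 scale (SE 0.19, 95% confidence interval -0.13 to 0.68, adjusted p = 0.654 by limma). It was 0.46 without PBS replicate 1 and 0.16 without PBS replicate 3. Bcl2a1b had 844, 522, 883, 681 and 664 normalized counts in PBS libraries and 658, 516, 639.9, 653 and 648 in OVA libraries. The OVA libraries were close together except for OVA replicate 7, and all 5 lay below the PBS median of 681. Its log2 fold change was -0.19 (SE 0.16, adjusted p = 0.725 by limma), with values from -0.30 without PBS replicate 2 to -0.11 without PBS replicate 3 and about -0.12 without PBS replicate 1 or OVA replicate 7. The 3 Bcl2a1 copies summed were 1200.4 ± 333 in PBS and 1053 ± 97.1 in OVA (SD, n = 5 each). Bcl2l2, which encodes Bcl-w, a guard best known in germ cells and neurons, was scarcely detected, with 0.937 to 26.7 normalized counts in PBS libraries and 1.90 to 13.4 in OVA libraries. It had 3 reads or fewer in 5 of the 10 libraries, and a difference was not detectable at these counts (log2 fold change -0.21, 95% confidence interval -1.85 to 1.43). Bcl2l2 shares 594 exonic bases (13.3%) with Gm20521 on the same strand, and the part of this overlap in its low counts was not tested.

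**Figure D2:**
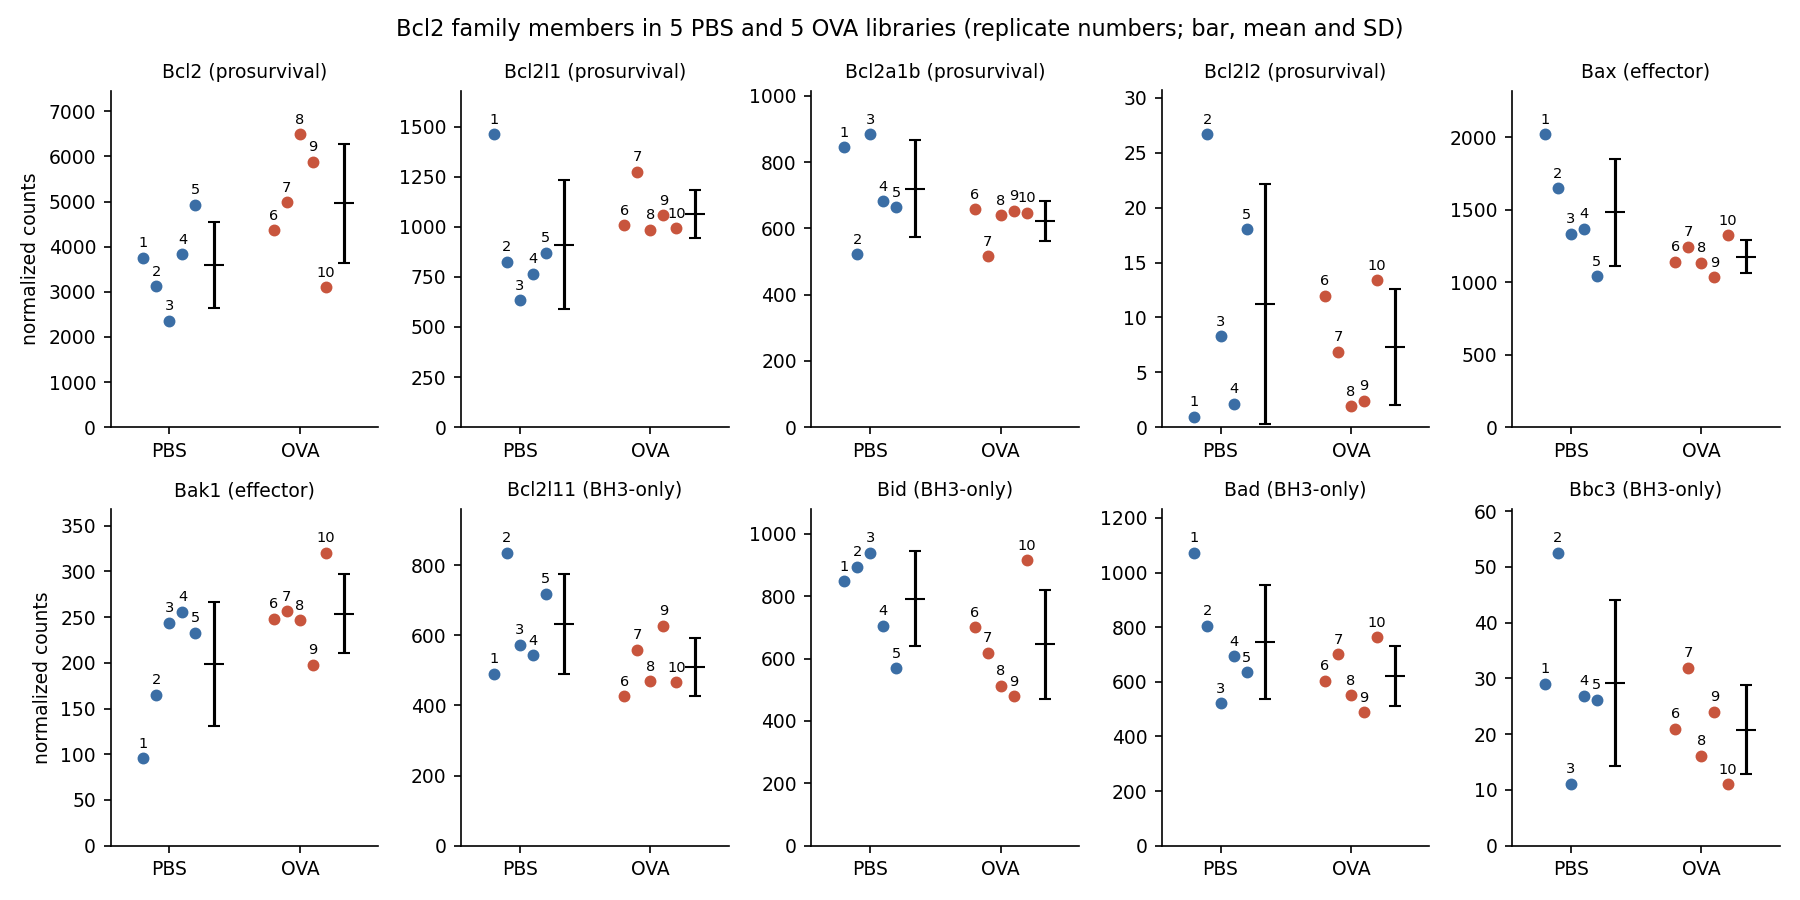
Normalized counts of each member on the y axis (linear, from 0) in the 5 PBS and 5 OVA libraries, with 1 point per library marked by its replicate number and a bar for the mean and SD of each group. The groups overlap in every panel, and OVA replicate 10 lies on the PBS side for Bcl2 (3097) and Bid (915).

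The effectors did not share a sign. Bax, which moves from the cytosol to mitochondria when activated, had 2019, 1647, 1335, 1367.5 and 1041 normalized counts in PBS libraries and 1142, 1244, 1134, 1034 and 1325 in OVA libraries. All 5 OVA libraries lay below the PBS median, but PBS replicate 5 was as low as they were. The mean was 1482 ± 369 in PBS and 1176 ± 112 in OVA (SD, n = 5 each), with a log2 fold change of -0.30 (SE 0.16, 95% confidence interval -0.65 to 0.04, limma adjusted p = 0.568). It was -0.18 without PBS replicate 1 and -0.42 without PBS replicate 5 (unadjusted p = 0.0141), where 12.9% of all genes passed an unadjusted p of 0.05. Bak1, which sits in the mitochondrial membrane also in healthy cells, had 95.6, 165, 244, 256 and 233 normalized counts in PBS libraries and 248, 257, 246.5, 198 and 320.3 in OVA libraries. PBS replicates 1 and 2 were the lowest, and the other 3 PBS libraries lay within the OVA range. For Bak1 the log2 fold change was 0.42 (SE 0.26, adjusted p = 0.610 by limma), and it was 0.18 without PBS replicate 1. Bak1 shares exonic bases with Ggnbp1 on the opposite strand, and Bax shares 192 (12.2%) with Gm45808 on its own strand.

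All 4 BH3-only members had negative estimates, and none passed the test. Bcl2l11, the main BH3-only killer of T cells deprived of cytokine, had 490.0, 835, 573, 543 and 719 normalized counts in PBS libraries and 427, 558, 469, 627 and 467 in OVA libraries. OVA replicates 6, 8 and 10 fell below every PBS library, and PBS replicate 2 was the highest. Its estimate on the log2 scale was -0.30 (SE 0.17, 95% confidence interval -0.66 to 0.07, limma adjusted p = 0.591), and it was -0.19 without PBS replicate 2. Bid, which is cleaved by caspase-8 and links death receptors to mitochondria, had 849, 895, 939, 705 and 569 normalized counts in PBS libraries and 701, 619, 513, 479 and 915 in OVA libraries. OVA replicates 8 and 9 were the lowest of all libraries, whereas OVA replicate 10 was among the highest. OVA minus PBS was -0.31 on the log2 scale (SE 0.19, adjusted p = 0.615 by limma), and -0.45 (SE 0.18, limma adjusted p = 0.392, unadjusted p = 0.0280) without OVA replicate 10. Its exons share 628 bases (17.7%) with Bcl2l13 on the opposite strand, which a kit that does not mark strand cannot tell apart. Without OVA replicate 10, 10.9% of all genes passed an unadjusted p of 0.05 and 0 passed after adjustment.

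Bad, whose killing activity is switched off by growth factor signals through phosphorylation, had 1072, 806, 521, 694 and 635 normalized counts in PBS libraries and 604, 701, 551, 488 and 763 in OVA libraries. The groups overlapped broadly, and PBS replicate 1 was the highest library. Its difference was -0.24 on the log2 scale (SE 0.19, adjusted p = 0.707 by limma), and it was -0.0964 without PBS replicate 1. In Bad, 524 of its exonic bases (20.5%) are shared with Gpr137 on the opposite strand. Bbc3, which encodes Puma, a target of p53, was low, with 29.0, 52.5, 11.1, 26.9 and 26.2 normalized counts in PBS libraries and 20.99, 31.9, 16.1, 24.0 and 11.02 in OVA libraries. These values rested on 4 to 61 reads per library. Its log2 fold change was -0.40 with a wide 95% confidence interval of -1.34 to 0.54 (limma adjusted p = 0.8002). Single libraries moved it from -0.15 (without PBS replicate 2) and -0.20 (without OVA replicate 10) to -0.69 (without PBS replicate 3).

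The members covered a wide range of levels when divided by the length of their gene models, which join the exons of all annotated transcripts and so understate genes with long untranslated ends. In PBS libraries, Bax had 940.3 ± 234 and Bcl2a1b 880.1 ± 179 normalized counts per kb (SD, n = 5). Their order held in 5 of 10 libraries, so these neighbours did not differ beyond their spread. Bcl2 followed with 393 ± 104 per kb, below Bcl2a1b in 10 of 10 libraries, and then came Bad with 291 ± 81.9, Bid with 223 ± 42.9 and Bcl2l1 with 199 ± 69.7. Bid stood above Bcl2l1 in only 4 of 10 libraries (3 of 5 in PBS). Bak1 (82.5 ± 28.1) stood above Bcl2l11 (78.7 ± 17.6) in 8 of 10, but in only 3 of 5 PBS libraries. Bbc3 (13.7 ± 7.01) and Bcl2l2 (2.52 ± 2.46) were the lowest of the 10 members, in that order in 10 of 10 libraries.

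The balance of the family was described as the summed normalized counts of the 4 prosurvival members over those of the 6 proapoptotic members. This ratio was 1.33, 1.02, 1.07, 1.47 and 2.01 in PBS replicates 1 to 5 and 1.92, 1.99, 2.77, 2.66 and 1.25 in OVA replicates 6 to 10. OVA replicates 8 and 9 exceeded every PBS library, PBS replicate 5 was as high as OVA replicates 6 and 7, and OVA replicate 10 lay within the PBS range. On the log2 scale the mean was 0.42 ± 0.39 in PBS and 1.03 ± 0.46 in OVA (SD, n = 5 each), a difference of 0.61, and it was 0.78 without OVA replicate 10. The prosurvival sum was 5240 ± 1074 in PBS and 6655 ± 1326 in OVA, and the proapoptotic sum 3879 ± 571 and 3227 ± 388. Bcl2 made up 60.8 to 76.1% of the prosurvival sum in PBS libraries and 65.2 to 80.0% in OVA libraries. With Bcl2 left out of the sum, the difference in the log2 ratio was 0.33. Per kb of gene model it was also 0.33, and with Mcl1, Bcl2a1a, Bcl2a1d, Bmf and Pmaip1 added it was 0.48. The level of the ratio depended on the scale. In PBS libraries its mean was 1.38 in summed counts and 0.93 per kb (0.64 to 1.22), and in OVA libraries 2.12 and 1.16. No p-value is given for these sums.

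In the normalized counts as given, the BH3-only sum separated the groups except for OVA replicate 10. It was formed from 4 members already seen to have estimates of the same sign. The sum was 1950 to 2588 normalized counts in PBS libraries and 1549 to 1910.3 in OVA replicates 6 to 9, with 2155 in OVA replicate 10. Unlike a ratio, it depends on how the libraries are scaled. At equal library totals, OVA replicate 7 (1910.3 of 18724595) would lie above PBS replicate 4 (1969 of 19502710), and the groups would overlap. The ratio of Bcl2 to Bcl2l11, a guard and the BH3-only protein it restrains in T cells, also set OVA replicates 6 to 9 apart from PBS. It was 7.64, 3.73, 4.12, 7.03 and 6.85 in PBS libraries and 10.2, 8.91, 13.8, 9.36 and 6.62 in OVA libraries, with 4 of 5 OVA libraries above the highest PBS library. The log2 ratio was 2.49 ± 0.48 in PBS and 3.25 ± 0.38 in OVA (SD, n = 5 each), a difference of 0.76, and 0.89 without OVA replicate 10. Without that library the groups still overlapped in each single member, and they did not overlap in 4.03% of all genes tested. That share is of single genes and is no measure for a sum or ratio of several.

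**Figure D3:**
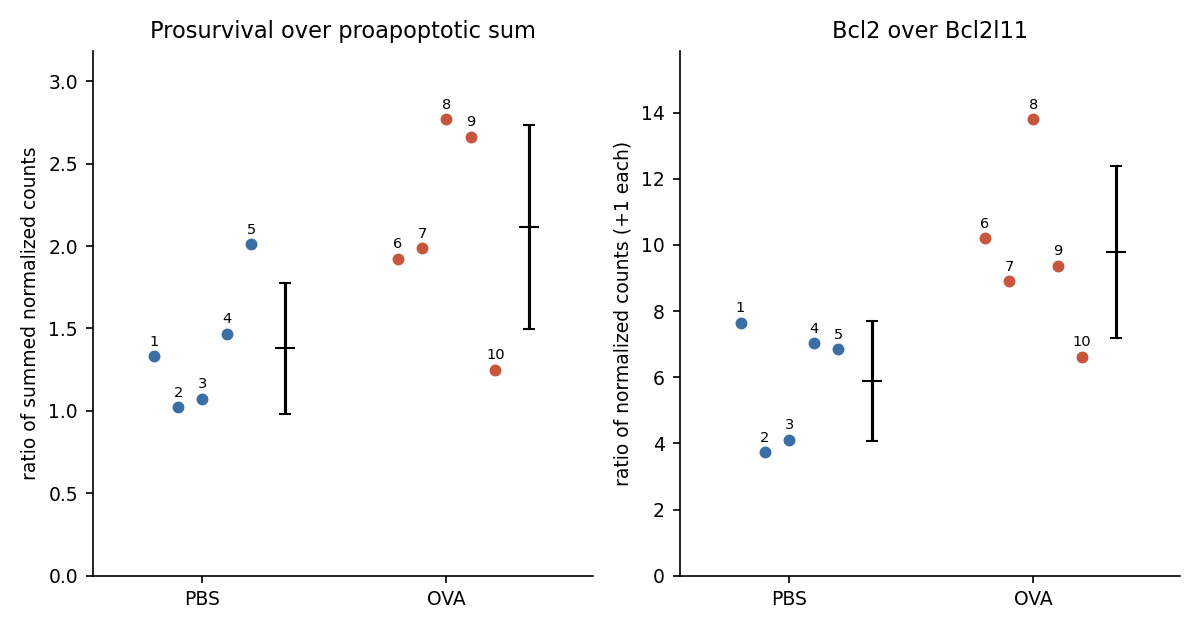
Ratio of the prosurvival to the proapoptotic sum (left) and of Bcl2 to Bcl2l11 (right) on linear y axes from 0, with 1 point per library marked by its replicate number and a bar for the mean and SD of the 5 PBS and 5 OVA libraries. OVA replicate 10 lies within the PBS range in both panels (1.25 and 6.62), and OVA replicate 8 is the highest (2.77 and 13.8).

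Among the 45 pairs of members, Bcl2 and Bid opposed each other most closely across the 10 libraries. From the lowest Bcl2 library (PBS replicate 3, 2362 normalized counts, with 939 of Bid) to the highest (OVA replicate 8, 6488, with 513 of Bid), libraries with more Bcl2 tended to hold less Bid. On the log2 scale Pearson's r was -0.947 (permutation test, adjusted p = 0.0018) and Spearman's rho -0.976 (permutation test, adjusted p = 0.00135), adjusted over the 45 pairs. The relation was present in PBS libraries (r = -0.888) and in OVA libraries (r = -0.975), and r was -0.967 without PBS replicate 3 and OVA replicate 8, the 2 libraries farthest from the median of Bcl2. No other pair passed after adjustment. The next was Bad with Bax (r = 0.845, permutation test, p = 0.00238, adjusted p = 0.0535, with rho 0.721, p = 0.0232 and adjusted p = 0.267), where r dropped to 0.565 without the 2 libraries farthest from the median of Bad. With values divided by the summed T cell markers of each library, the correlation of Bcl2 with Bid was -0.587 and no longer passed (permutation test, adjusted p = 0.388). On that scale the 1 pair that passed was instead Bax with Bid (r = 0.884, permutation test, adjusted p = 0.0373). A divisor shared by 2 genes can by itself move their r. This scale therefore cannot show whether the opposition of Bcl2 and Bid is weaker relative to T cells.

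**Figure D4:**
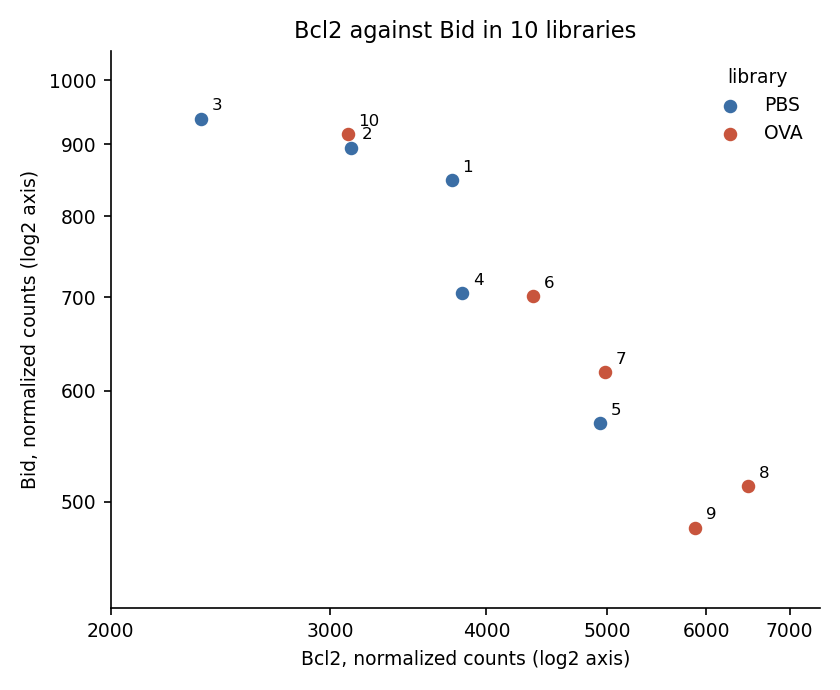
Bid against Bcl2 in the 10 libraries, in normalized counts on log2 axes, with 1 point per library marked by its replicate number and colour for PBS and OVA. Both groups lie along the same falling band, with PBS replicate 3 at one end and OVA replicates 8 and 9 at the other.

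This opposition lay along the main axis of variation of the whole table. The first principal component over the 13444 genes that averaged 20 normalized counts or more held 29.0% of the variance, and PBS replicate 3, the shallowest library, was its extreme. Bcl2 and Bid are among these genes. They were set against the component because they were the pair that passed, so these tests are not independent of that result. Bcl2 followed this component with r = 0.921 (rho = 0.939, permutation tests, adjusted p = 0.00288 and 0.00528 over 24 relations), and Bid opposed it with r = -0.789 (rho = -0.891, permutation tests, adjusted p = 0.0463 and 0.0152). Without the 2 libraries farthest from its median the values of r were 0.848 and -0.754. In all, 16 genes had an r with Bcl2 at or below that of Bid, Bid included, and 148 genes (1.10%) passed an absolute r of 0.9. The summed plasma cell markers went down as Bcl2 went up (r = -0.789, rho = -0.806, permutation tests, p = 0.00789 and 0.00769, adjusted p = 0.0631 and 0.0615), and r was -0.593 without PBS replicates 2 and 3. Neither this nor the other marker sums passed after adjustment, and the part of other cells in the Bcl2 values was not tested.

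Other genes of the apoptosis pathway were grouped into 4 lists, with 49 genes tested. In limma none passed an adjusted or an unadjusted p of 0.05, beside 0.00494% and 9.77% of all genes. At an unadjusted p of 0.05, 1 passed in edgeR and 1 in DESeq2, beside 1835 and 1878 of all 20249 genes. Of the 49 genes, 22 had positive and 27 negative estimates, with a median log2 fold change of -0.01 beside 0.04 over all genes. Bcl2l10, Bok and Hrk were not analysed here, and Cflar, Il2rb and Il2rg were left out because their rows were placed with a probability under 0.9. Among 9 other family members, Mcl1, a prosurvival protein on which T cells depend, had 1075 to 1716 normalized counts in PBS libraries and 1090 to 1345 in OVA libraries (log2 fold change -0.14, 95% confidence interval -0.44 to 0.16). Pmaip1, which encodes the Mcl1 antagonist Noxa, had 77.6 to 116 and 57.0 to 105 normalized counts (log2 fold change -0.24, limma adjusted p = 0.771). Bmf, a BH3-only protein, had 9.02 to 74.0 and 30.0 to 94.5 (log2 fold change 0.48, limma adjusted p = 0.790). The estimates of Bcl2l14 (0.77, SE 0.88) and Bcl2a1a (-0.42, SE 0.42) were within their errors.

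The 18 genes of the mitochondrial arm had a median log2 fold change of -0.02, with 8 positive and 10 negative. Those with the largest estimates were the mitochondrial nuclease gene Endog (0.61, SE 0.49, limma adjusted p = 0.708), the protease gene Htra2 (-0.42, SE 0.24, limma adjusted p = 0.594) and the giant inhibitor of apoptosis Birc6 (0.38, SE 0.19, limma adjusted p = 0.546). The 8 genes tested of the death receptor arm ranged from -0.33 to 0.12, and the 14 upstream regulators, which include p53, the Foxo factors and the Stat5 factors, from -0.34 to 0.15.

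T cell markers were abundant in every library, and markers of other cells varied. The 12 placed T cell markers summed to 103044 to 193405 normalized counts in PBS libraries and 129830 to 173922 in OVA libraries, with the least in PBS replicate 3, and 0 of 12 passed an adjusted or unadjusted p of 0.05. Of 8 listed stromal markers, only 3 were placed with a probability of at least 0.9. All 5 OVA libraries exceeded the PBS libraries in the sum of these 3 (61.6 to 99.7 against 5.16 to 30.7). At an unadjusted p of 0.05 (limma), 3 of 3 (Dcn, Pdgfrb and Serping1) were higher, beside 9.77% of all genes passing in either direction. The authors singled out Dcn as raised by OVA in these same libraries, so its rise was known beforehand. They assign it to T cells, with more Dcn RNA in CD4+ and CD8+ cells and more decorin in T cell medium. Of the 3 stromal markers, Dcn and Serping1 were at 0 in at least 1 library. The 5 plasma cell markers summed to 15044 to 91531 in PBS libraries and 8861 to 28557 in OVA libraries, where the mean sum was 0.319 of that in PBS and 3 of 5 were lower at an unadjusted p of 0.05. The 8 erythroid markers summed to 3206 to 16453 and 548 to 10130.0, the 8 B cell markers to 753 to 2520.2 and 807 to 7143, and the 6 neutrophil markers to 197 to 5844 and 225 to 25985. The highest B cell and neutrophil sums were those of OVA replicate 6. Of the 8 B cell markers, 3 were higher in OVA libraries at an unadjusted p of 0.05, and Pax5, Fcer2a and Cr2 were at 0 in at least 1 library. Of the erythroid markers, 1 was lower at that level, and none of the 10 lists held a marker that passed after adjustment. By sign, 8 of 8 B cell markers were higher in OVA libraries and 8 of 8 erythroid markers lower. The macrophage, dendritic, NK and cycling cell sums overlapped between the groups, as did the sums of every other list but the stromal one. At an unadjusted p of 0.05, 1 marker each of the macrophage, NK and cycling lists was higher, and 0 of the dendritic list. The part of any of these cells in the members' values was not tested.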

How the data were processed

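RNA of spleen CD3+ T cells from 5 PBS and 5 OVA libraries was analysed. The authors aligned reads with STAR 2.6.1d to Ensembl release 99 (mm10) and counted genes in Partek Flow 9.0. The deposited values are normalized counts (a signal), which are gene counts the authors divided by median-ratio size factors. At least 99.9% of the values were whole multiples (within 0.1) of 1 read, worth 0.626 to 2.77 normalized counts, which recovered the reads. The floor of 3 reads was 8.31 normalized counts in PBS replicate 3 and 1.88 to 3.60 elsewhere, for counting error only.

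The main test was limma 3.58.1 (R 4.3.3) with a trended variance, on log2 of the normalized counts plus 1, in genes averaging 1 or more. P-values were adjusted by Benjamini-Hochberg over all genes. A fold change on this scale understates that of low genes. Alternatives were edgeR 4.0.16 and DESeq2 1.42.0 on recovered reads, other pseudocounts, minimums and scalings, other steps between names and values, and each replicate left out. In simulated counts of 19696 genes, of which 200 differed by 3 (log2), limma found 153 and made 10 false calls, edgeR 149 and 7, and DESeq2 163 and 37. The members' estimates ran from -0.40 to 0.46. The simulation therefore does not show how often differences of their size would be found. Correlations used 100000 resamples, two-sided. Placed genes have a probability of at least 0.9. All members were named, besides Mcl1, Bmf, Pmaip1 and the 6 pathway genes with the largest estimates. The members and lists were chosen with earlier results of these data known. Protein sequences were not used here.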

Additional observations from a re-analysis of the deposited data

Results flagged for a closer look

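In 24 groups of 5 libraries (10 members, the balance and the ratio of Bcl2 to Bcl2l11, each in PBS and in OVA), 3 had a library far from the other 4 by Dixon's 95% criterion, which chance meets in about 1 of 20 groups. Bcl2a1b was lowest in OVA replicate 7 (516 normalized counts against 639.9 to 658), with a gap of 0.872 of the range. Bcl2l1 was highest in the same library (1274 against 985 to 1058), with a gap of 0.747. In PBS libraries Bcl2l1 was highest in PBS replicate 1 (1461 against 634 to 871), with a gap of 0.714.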

How the results depend on the processing

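No paired analysis was possible because the groups share no replicate number. The number of members called was 0 under all 33 alternatives, which include edgeR, DESeq2 and each replicate left out. Among the 33 are also the other steps between names and values, which read other genes' rows and do not bear on the members. Unadjusted passes ranged from 0 to 3 with a replicate left out, beside 7.27 to 12.9% of all genes, with both maxima without PBS replicate 5. The number of other pathway genes called was 0 under all 21 alternatives, among them the names as listed, which read other genes' rows. Of all genes, 1 was called by limma, 0 with a pseudocount of 0.1 or quantile normalization, 2 by edgeR, 167 by DESeq2 and between 0 and 135 with a replicate left out, the most without PBS replicate 5. The cause was not tested.

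The log2 balance difference was 0.61, and 0.50 to 0.78 with a replicate left out. The log2 ratio of Bcl2 to Bcl2l11 differed by 0.76, and by 0.61 to 0.89. With other steps between names and values, which read other genes' rows, the balance difference was -0.10 (names as listed), -0.0428 (2 rows above) and -0.0126 (4 rows above), and the ratio difference was -0.72, -0.44 and 0.0907. At these steps the log2 fold changes also turned. With names as listed they were 0.25 for Bad, -0.22 for Bak1, 0.20 for Bax, 0.46 for Bbc3, -0.0118 for Bcl2l1, 0.77 for Bcl2l11 and 0.0912 for Bid. At 2 rows above they were -0.42 for Bcl2, 0.0488 for Bcl2a1b, -0.30 for Bcl2l1 and 0.0205 for Bcl2l11. At 4 rows above they were 0.41 for Bad, -0.0037 for Bak1, 0.42 for Bbc3, 0.28 for Bcl2l11 and 0.17 for Bid. At 3 rows, Bcl2l2 alone turned, from -0.21 to between -0.71 and 0.25 with a replicate left out, and it had at most 31 reads per library.

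Pairs of members passing after adjustment numbered 1, but 2 with TMM size factors and 1 to 2 with a replicate left out, and another pair relative to T cell markers. These alternatives, the values relative to T cell markers, DESeq2 with a replicate left out and the wider balance were chosen after seeing the data. The BH3-only sum and the relations with the first principal component and the marker sums were also not planned.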
